A study of Mus musculus with 69 samples.

Results

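The 10 genes described here mark hepatic stellate cells and the remodeling of the extracellular matrix: Acta2, Tagln, Pdgfrb, Des, Lrat, Reln, Timp1, Mmp12, Mmp13 and Lox. Each was taken as the probe set carrying that gene symbol, and all 10 were found, 1 probe set each, among the 17306 probe sets of the arrays. They were measured in liver of male C57BL/6 mice, 10 weeks old and 21 to 27 g in weight, killed 1 or 2 days after a single dose by oral gavage. RNA came from the middle of the left lateral lobe, and 1 array was made per mouse.

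Mice received 1 of 3 compounds. The low, medium and high doses of acetaminophen (APAP), a common painkiller with known liver toxicity when too much is taken, were 168.75, 225 and 300 mg/kg. Those of isoniazid (INZ), which treats tuberculosis, were 22, 44 and 88 mg/kg. Those of the weedkiller paraquat (PQ), which makes cells produce superoxide, were 12.5, 25 and 50 mg/kg. All doses were sampled at 1 day and the high doses also at 2 days. A vehicle group of 5 mice at each day, labelled for APAP alone, served all 3 compounds, so that comparisons on the same day share their controls. The 69 arrays fall into 14 groups of 5, apart from medium PQ at 1 day, which had 4. Replicate numbers below follow the order of the records. The 11 arrays with numbers above 190 in their titles, whose meaning is not stated, come first in that order and include no vehicle array. Replicate 1 of high-dose APAP at 1 day, replicate 1 of high-dose PQ at 1 day, replicates 1 and 2 of high-dose APAP at 2 days and replicates 1 and 2 of medium-dose APAP are among them, and replicate 1 of low-dose APAP is not.

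Stellate cells lie between hepatocytes and the sinusoidal endothelium and store vitamin A as retinyl esters. After injury they can turn into contractile, matrix-producing myofibroblasts: they take up smooth muscle actin and its partner proteins, respond to platelet-derived growth factor (PDGF) and transforming growth factor beta (TGF beta), lose vitamin A, and secrete collagen together with its crosslinking enzymes. Matrix metalloproteinases (MMPs) cut matrix proteins, and tissue inhibitors of metalloproteinases (TIMPs) block them. Several of these genes are also used by macrophages, smooth muscle or portal fibroblasts, so in a piece of whole liver none of them counts cells of 1 type.

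Signals are log2 values of the deposited table, on which a difference of 1 is a doubling. The fit was made with limma across all genes and all 69 arrays, and a gene is called where its p, adjusted by Benjamini-Hochberg over 17306 probe sets, is under 0.05. The spread is shared by the 14 groups in this fit. Exact permutation p values, two-sided and not adjusted, compare the 2 groups alone. With 5 arrays a side they cannot go below 0.0079. Over all 69 arrays the median log2 signal ran from 4.23 to 4.56. The lowest was that of replicate 3 of high-dose APAP at 2 days, and the next was 4.37. Values of 4.53 to 4.56 came from replicates 2, 3 and 5 of high-dose APAP at 1 day and replicate 1 at 2 days. Replicate 4 of medium-dose APAP and replicate 1 of low-dose APAP and of high-dose PQ at 1 day shared that range. These are arrays with high Acta2 and Timp1. Hepatocyte markers averaged between 12.0005 and 12.41 on the high-dose APAP arrays of both days. In vehicle they averaged between 12.26 and 12.48 at 1 day and between 12.24 and 12.42 at 2 days. Replicate 2 of high-dose APAP at 1 day (12.0005) and replicate 1 at 2 days (12.0039) lay below every vehicle array of their day. Of the 8 stellate cell markers, the vehicle means at 1 day were 10.97 for Dcn, 9.24 for Reln, 7.08 for Lrat and 5.37 for Pdgfrb. The other markers, Hand2 at 3.93, Des at 3.57, Ngfr at 3.51 and Gfap at 2.64, lay below every array's median. The vehicle means of Timp1, Lox, Mmp12 and Mmp13 lay below it as well. No detection calls were used, so these vehicle levels are not shown to exceed background.

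In 3 groups the first array was set apart from the other 4 by its levels of these 10 genes. Replicate 1 of low-dose APAP had 7 of the 10 genes above and 1 below every vehicle array of 1 day. Replicate 1 of high-dose PQ at 1 day had 7 above and 2 below. Replicate 1 of high-dose APAP at 1 day had 1 above and 2 below, while the other 4 arrays of that group had 6 to 8 above and 2 below each. Replicate 1 of PQ thus resembled the high-dose APAP arrays and replicate 1 of high-dose APAP the vehicle arrays. For single arrays, here and at the medium dose below, no share of all probe sets is given beside these counts. Low counts alone therefore do not set an array apart from vehicle. Replicates 2 and 3 of medium-dose APAP and replicate 3 of high-dose APAP at 2 days had small median changes too. These were -0.05, -0.15 and -0.06. Some of their genes left the vehicle range, however. Replicate 3 of the medium dose had 5 genes below every vehicle array of its day. Replicate 3 at 2 days had 3 above and 3 below. Neutrophil markers averaged 5.10 on the former and 4.97 on the latter, against at most 4.17 and 3.96 in vehicle of their day. What sets such arrays apart, a wrong label or a difference between mice included, was not tested. The main values keep all arrays, the 3 first arrays included. Values without these 3 are given where a count rests on them. The 3 were picked by their levels of these same genes, so leaving them out narrows the spread and, at 1 day, raises the APAP mean by construction. Such counts are descriptions, not added support.

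**Figure D1:**
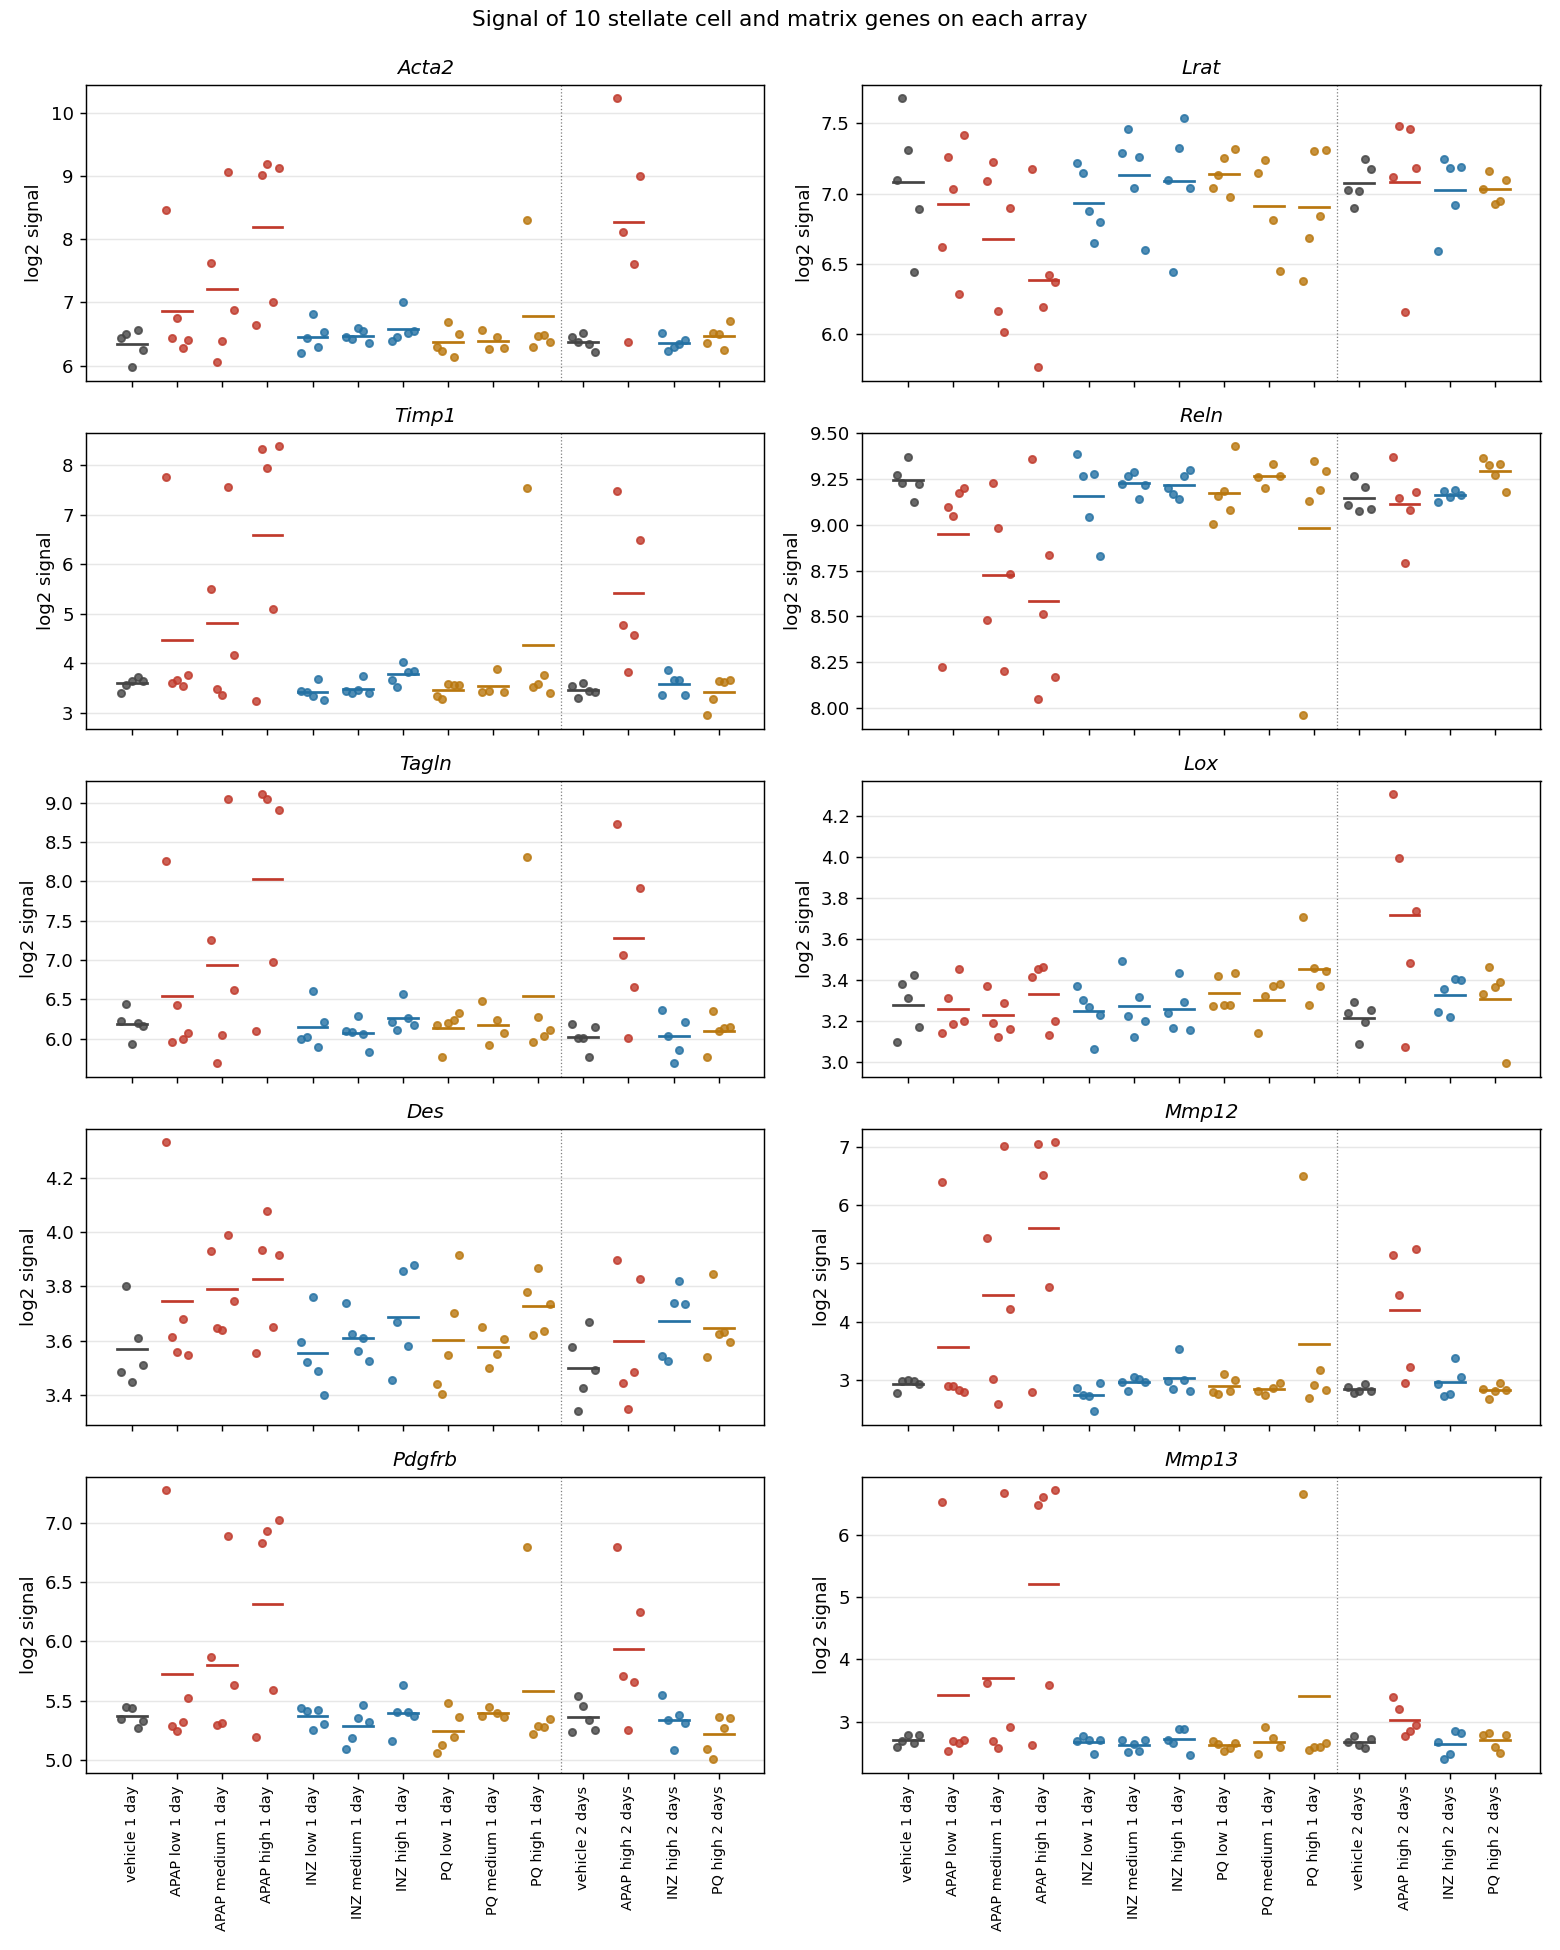
Log2 signal (vertical axis) of each of the 10 genes on each array, by group (horizontal axis). Points are arrays, bars are group means, and the dotted line separates 1 day from 2 days. High values of Acta2, Timp1, Tagln, Pdgfrb, Mmp12 and Mmp13 lie in APAP groups and on 1 array of high-dose PQ at 1 day, whereas INZ groups stay near vehicle.

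High-dose APAP at 1 day was compared with vehicle of that day to see how early these genes moved after injury. Of the 10 genes, 6 rose (Timp1, Mmp12, Mmp13, Acta2, Tagln and Pdgfrb), 2 fell (Lrat and Reln), and Des and Lox did not pass the test. The median change of the 10 was 1.39 on the log2 scale, against -0.05 over all genes. In this comparison 30.1% of all probe sets were called, 14.8% higher and 15.3% lower. Acta2 alone had every treated array above every vehicle array, which held for 2.99% of all probe sets.

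The shared spread matters for these calls. When the 10 arrays of the 2 groups were fitted alone, 0 of the 10 genes were called, with limma's adjusted p between 0.067 and 0.1 for the 8 named above, and 0.104% of all probe sets. Without the 3 arrays that stand apart, 9 genes and 40.6% of all probe sets were called, Des being the addition at 0.32 ± 0.10 (SE, adjusted p = 0.0077 with limma). Without only the first arrays of low-dose APAP and high-dose PQ, which leaves the compared groups whole, 9 genes and 33.2% were called. With the lowest APAP array of 2 days left out besides the 3, the values were 9 genes and 41.7%.

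**Figure D2:**
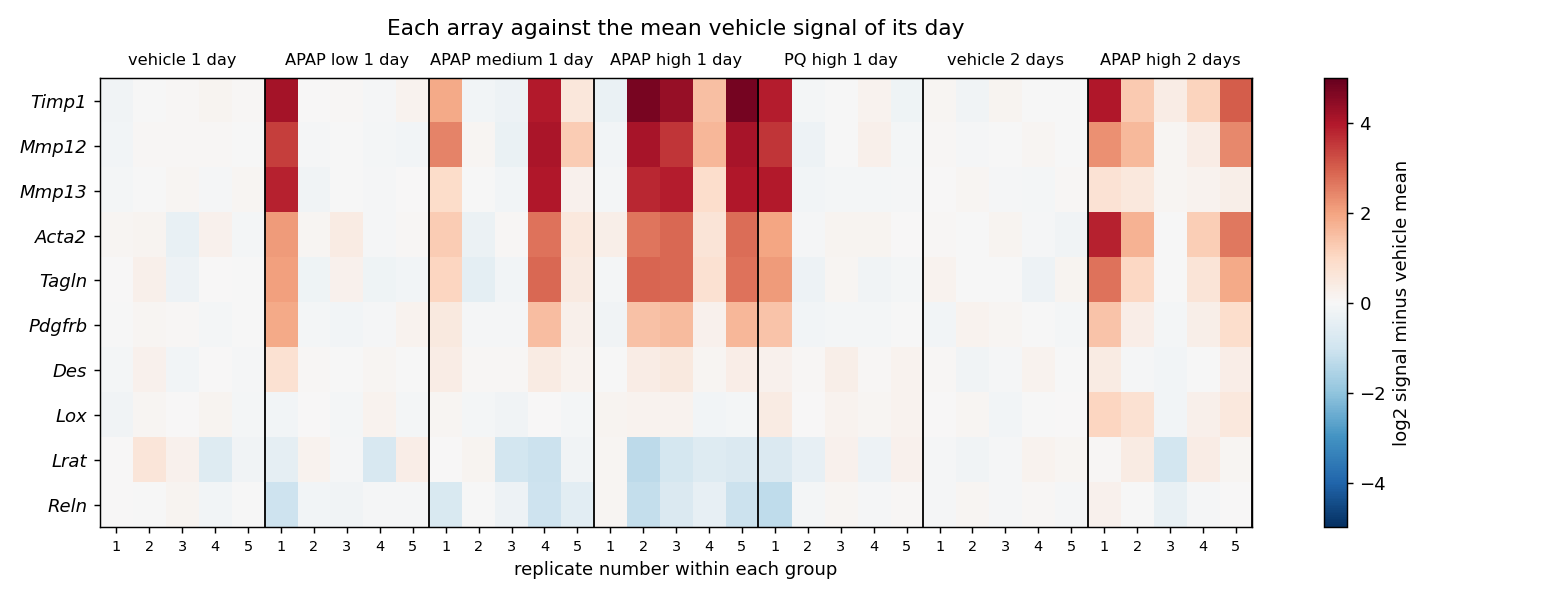
Log2 signal of each gene (rows) minus its mean in vehicle of the same day, for each array (columns, numbered by replicate) of 7 groups. Red is above and blue below the vehicle mean. Replicates 2, 3 and 5 of high-dose APAP at 1 day, replicate 4 of medium-dose APAP and replicate 1 of low-dose APAP and of high-dose PQ share strong red in Acta2, Timp1, Tagln, Pdgfrb, Mmp12 and Mmp13 and blue in Reln.

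Acta2 encodes alpha smooth muscle actin, the usual mark of a myofibroblast, and is also made by the smooth muscle of vessels. In vehicle at 1 day its signals were 6.44, 6.50, 5.97, 6.56 and 6.25. After high-dose APAP they were 6.65, 9.02, 9.20, 7.003 and 9.13. Replicates 2, 3 and 5 were high and replicates 1 and 4 lay closer to vehicle, with no overlap between the groups. The rise was 1.86 ± 0.44 (log2, SE) or 3.62-fold, with an adjusted p of 0.0019 in limma and an exact permutation p of 0.0079.

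Tagln encodes transgelin, an actin-binding protein of smooth muscle and myofibroblasts. Vehicle arrays read 6.23, 6.44, 5.92, 6.20 and 6.16, and treated arrays 6.10, 9.11, 9.05, 6.97 and 8.91. The same 3 treated arrays were high, and replicate 1 lay within the vehicle range. Tagln rose by 1.84 ± 0.44 (log2, SE) or 3.57-fold, with an adjusted p of 0.0022 in limma and an exact permutation p of 0.04.

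Pdgfrb encodes the PDGF receptor beta, through which PDGF drives division and migration of stellate cells. Vehicle signals were 5.35, 5.45, 5.43, 5.27 and 5.33, and treated signals were 5.19, 6.84, 6.93, 5.59 and 7.03. Replicate 1 lay below all vehicle arrays and the other 4 above all of them. The rise was 0.95 ± 0.28 (log2, SE) or 1.93-fold, with an adjusted p of 0.0094 in limma and an exact permutation p of 0.071. Without treated replicate 3 or 5 the change was 0.80 or 0.77 and the adjusted p in limma 0.052 or 0.061.

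Des encodes desmin, an intermediate filament of muscle that rodent stellate cells also make. It ranged from 3.45 to 3.80 in vehicle and from 3.55 to 4.08 after APAP, overlapping. Its change of 0.26 ± 0.11 (log2, SE) had an adjusted p of 0.071 in limma.

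Lrat encodes lecithin retinol acyltransferase, the enzyme that makes the retinyl esters stored by resting stellate cells. Vehicle signals were 7.10, 7.68, 7.31, 6.44 and 6.89, and treated signals were 7.17, 5.76, 6.19, 6.42 and 6.37. Replicate 1 sat in the middle of the vehicle range and the other 4 lay below its lowest array. Lrat fell by 0.70 ± 0.24 on the log2 scale (SE), which is 1.62-fold, with an adjusted p of 0.02 in limma and an exact permutation p of 0.071. The call was lost without treated replicate 2 (-0.54, adjusted p = 0.1 in limma) or 3 (-0.65, adjusted p = 0.06). It was also lost without vehicle replicate 2 (-0.55, adjusted p = 0.084 in limma) or 3 (-0.64, adjusted p = 0.052).

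Reln encodes reelin, a secreted glycoprotein that stellate cells make in healthy liver. Vehicle signals were 9.27, 9.23, 9.37, 9.12 and 9.23, a narrow band. Treated signals were 9.36, 8.05, 8.51, 8.83 and 8.17. Replicate 1 stayed inside the vehicle band and the other 4 fell clear below it. Reln fell by 0.66 ± 0.18 on the log2 scale (SE), or 1.58-fold, with an adjusted p of 0.0042 in limma and an exact permutation p of 0.04. In tissue of mixed cells, fewer stellate cells and less RNA per stellate cell cannot be told apart for either gene. The part of other cells in the falls of Lrat and Reln was not tested.

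Timp1 encodes the inhibitor TIMP1, which hepatocytes, macrophages and stellate cells can all induce after injury. Vehicle arrays read 3.40, 3.57, 3.64, 3.73 and 3.64, and treated arrays 3.25, 8.32, 7.94, 5.09 and 8.38. Replicate 1 was below every vehicle array and the other 4 were far above them. The rise was 2.9997 ± 0.69 (log2, SE) or 7.998-fold, the highest of the 10, with an adjusted p of 0.0016 in limma and an exact permutation p of 0.048.

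Mmp12 encodes macrophage metalloelastase, which cuts elastin. Its vehicle signals were 2.79, 2.99, 3.003, 2.99 and 2.93, and its treated signals were 2.80, 7.05, 6.52, 4.59 and 7.07. It rose by 2.67 ± 0.60 (log2, SE) or 6.35-fold, with an adjusted p of 0.0014 in limma and an exact permutation p of 0.04. Replicate 1 did not leave the vehicle range, and replicate 4 was intermediate.

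Mmp13 encodes collagenase-3, the main interstitial collagenase of rodents. Its vehicle signals were 2.59, 2.69, 2.78, 2.66 and 2.78, and its treated signals were 2.62, 6.49, 6.62, 3.59 and 6.72. It rose by 2.51 ± 0.60 (log2, SE) or 5.69-fold, with an adjusted p of 0.0021 in limma and an exact permutation p of 0.04. As for Mmp12, 3 arrays were high, replicate 4 was intermediate and replicate 1 was at the vehicle level.

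The 2 MMP genes lie near each other on mouse chromosome 9, and their promoters are printed because the signals of both went up together and both windows hold the core of an AP-1 site, the element bound by FOS and JUN proteins. The windows are the 250 bases before a transcript start (RefSeq, GRCm38.p6, plus strand), chr9:7347124-7347373 for the second of 2 annotated starts of Mmp12 and chr9:7272264-7272513 for Mmp13. Capitals mark the 7 letters TGANTCA.
Mmp12: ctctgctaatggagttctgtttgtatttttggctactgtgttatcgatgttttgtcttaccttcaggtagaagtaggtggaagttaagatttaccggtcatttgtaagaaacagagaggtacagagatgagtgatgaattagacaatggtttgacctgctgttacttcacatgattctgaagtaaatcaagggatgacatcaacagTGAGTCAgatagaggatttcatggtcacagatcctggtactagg
Mmp13: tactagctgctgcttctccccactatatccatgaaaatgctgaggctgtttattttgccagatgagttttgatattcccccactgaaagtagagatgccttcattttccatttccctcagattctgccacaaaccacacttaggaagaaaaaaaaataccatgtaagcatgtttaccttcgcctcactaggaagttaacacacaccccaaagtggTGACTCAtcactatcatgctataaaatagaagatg
The match lies 44 to 38 bases before the Mmp12 start and 35 to 29 bases before the Mmp13 start. The window of the other Mmp12 start holds none. TGANTCA, which is its own reverse complement, was found in 6.75% of 32851 mouse promoters of this length. Of the 10 genes, 7 have a promoter in the table (Acta2, Timp1, Des, Lrat, Reln, Mmp12 and Mmp13), and AP-1 letters were found in the windows of Mmp12 and Mmp13 alone. The CArG box (CC, a run of A or T letters, then GG) was searched for too. This exact pattern was found in 1.47% of the mouse promoters and in no window of these 7 genes. A site with another letter inside the run was not counted. The Acta2 window holds such stretches, ccctatatgg and ccttgtttgg, so the search does not show that CArG sites are absent. The AP-1 hits are matches of letters in a short window and show no binding.

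Lox encodes lysyl oxidase, which crosslinks collagen and elastin. At 1 day its vehicle signals were 3.10, 3.38, 3.31, 3.43 and 3.17 and its treated signals were 3.42, 3.46, 3.46, 3.13 and 3.20. The groups overlapped and the change was 0.06 ± 0.11 (log2, SE, adjusted p = 0.74 in limma). With each array centred on its median this change was -0.03, the single one of the 10 whose sign turned at 1 day.

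Other genes of the same processes were grouped in 6 lists. Of all probe sets, 14.8% were called higher and 15.3% lower at 1 day, and 2.85% and 1.63% at 2 days. Their calls rest on the shared spread as those of the 10 genes do: fitted on the 2 groups alone, 0 genes of the 6 lists were called at 1 day and 0 at 2 days. Of 17 contractile and cytoskeletal genes, 10 were higher and 0 lower at 1 day. Cnn1, Actg2 and Lmod1, which also stand in the smooth muscle list below, were not among the 10. Tpm1, a tropomyosin, rose by 1.54 ± 0.35, Flna, an actin crosslinker, by 1.39 ± 0.32, and Actb, the cytoskeletal beta actin, by 0.51 ± 0.12 (log2, SE, adjusted p from 0.0014 to 0.0016 in limma). The median of the list was 0.38.

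Of 23 measured genes of PDGF and TGF beta signaling, 12 were higher and 2 lower. Thbs1, an activator of latent TGF beta, rose by 2.67 ± 0.54, and Ccn2, a matricellular target of TGF beta, by 2.45 ± 0.59. Skil, a TGF beta target that restrains SMAD proteins, rose by 0.90 ± 0.19 (log2, SE, adjusted p from 0.00083 to 0.0021 in limma for the 3). The median of the list was 0.35.

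Of 22 other matrix proteases and inhibitors, 10 were higher and 2 lower. Mmp14, a membrane-bound collagenase, rose by 1.17 ± 0.24, and Adamts4, a proteoglycan-cutting protease, by 1.52 ± 0.34 (log2, SE, adjusted p of 9e-04 and 0.0013 in limma). Reck, a membrane-anchored inhibitor of MMPs, fell by 0.98 ± 0.22 on the log2 scale (SE, adjusted p = 0.0013 in limma).

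Of 17 genes of collagen crosslinking and processing, 11 were higher and 0 lower. Tgm2, a transglutaminase, rose by 1.59 ± 0.34. P3h1, which hydroxylates collagen prolines, rose by 1.17 ± 0.29 and P4ha2, a prolyl hydroxylase subunit, by 1.00 ± 0.22 (log2, SE, adjusted p from 0.0011 to 0.0025 in limma). Of 18 matrix glycoproteins and proteoglycans, 7 were higher and 2 lower. Tnc, tenascin C of wound matrix, rose by 2.84 ± 0.59 and Fn1, fibronectin, by 0.57 ± 0.13, while Mfap4, a microfibril protein, fell by 0.48 ± 0.11 on the log2 scale (SE, adjusted p from 0.00089 to 0.0015 in limma).

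In 4 of these 5 lists the counts dropped without treated replicate 2, 3 or 5. The number higher was then 7 for PDGF and TGF beta signaling, 5 to 7 for proteases and inhibitors, 6 for crosslinking and 3 to 5 for glycoproteins, while the contractile list kept at least 9. Over all 17306 probe sets the number higher was 2559 in the main fit and 1634, 1550 and 1404 without these arrays in turn.

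In the list of stellate cell identity more genes were lower than higher, as Lrat and Reln were, whereas Pdgfrb, another stellate cell marker, rose. Of 13 measured genes 2 were higher and 6 lower at 1 day, and the list median was -0.24. The 3 named below had the smallest adjusted p of those called. All 3 fell, so the 2 that rose are not named. Without treated replicate 2, 3 or 5, 1 was higher and 4 were lower. In those fits 3171, 3094 and 2866 of the 17306 probe sets were called, against 5207 in the main fit. Angptl6, an angiopoietin-like secreted protein, fell by 1.17 ± 0.25 on the log2 scale, Colec11, a collectin of innate immunity, fell by 0.87 ± 0.23, and Vipr1, a receptor for vasoactive intestinal peptide, fell by 0.69 ± 0.17 (SE, adjusted p from 0.00095 to 0.0039 in limma). Liver cells other than stellate cells can make some of these proteins.

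**Figure D3:**
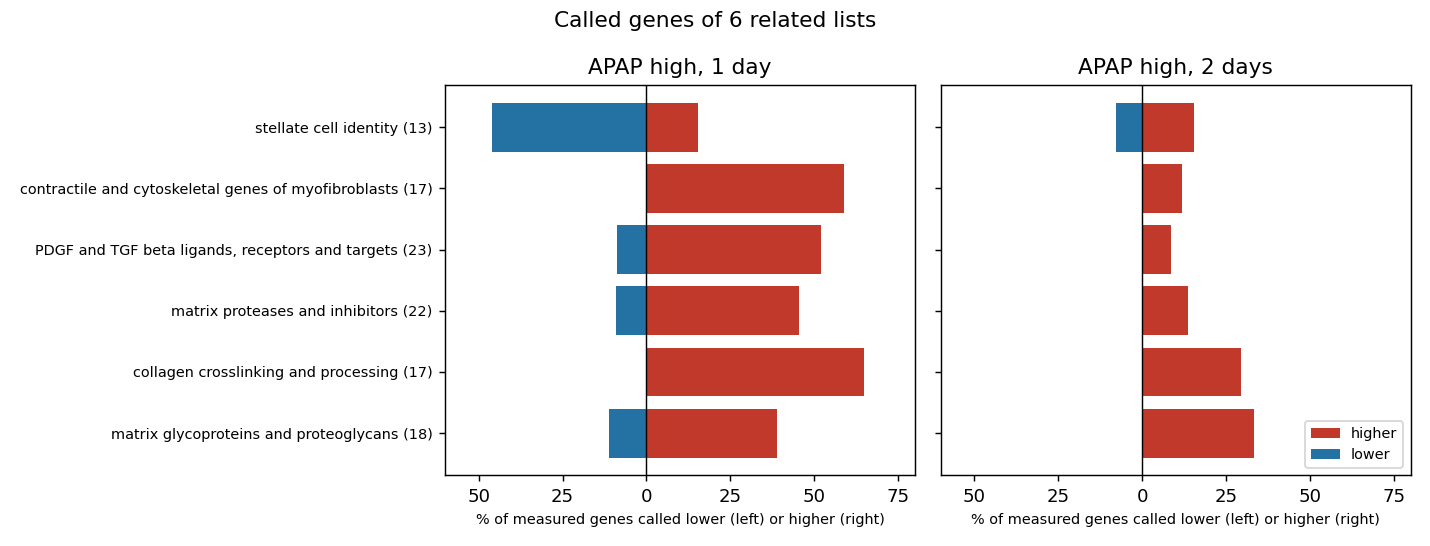
Share of measured genes called lower (blue, to the left) or higher (red, to the right) after high-dose APAP at 1 day and at 2 days in 6 lists, with the number of measured genes in brackets. At 1 day red bars dominate all lists but stellate cell identity, which had 6 of 13 genes lower. At 2 days the longest bar belongs to matrix glycoproteins and proteoglycans, with 6 of 18 higher.

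Markers of monocytes, macrophages and neutrophils moved on the same arrays. The share of all probe sets called at 1 day was 14.8% higher and 15.3% lower. Of 10 monocyte and macrophage markers, 7 were higher at 1 day. Their mean log2 signal lay between 4.99 and 5.20 in vehicle and between 4.94 and 6.90 after high-dose APAP, lowest on replicate 1. Of 8 neutrophil markers, 6 were higher, with means between 3.91 and 4.17 in vehicle and between 3.96 and 6.25 after APAP. Replicate 1 was again lowest. Itgam, an integrin of myeloid cells, rose by 1.38 ± 0.28 and S100a8, a neutrophil calgranulin, by 4.27 ± 0.86 (log2, SE, adjusted p of 0.00079 and 0.00081 in limma). The part of these cells in the rises of Timp1, Mmp12 and Mmp13 was not tested.

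Of 9 smooth muscle and pericyte markers, 1 was higher, the adhesion molecule Mcam (1.35 ± 0.27, log2, SE, adjusted p = 0.00078 in limma), and 1 lower, the proteoglycan Cspg4 (-0.23 ± 0.06, adjusted p = 0.0042). Their mean lay between 3.97 and 4.11 in vehicle and between 4.01 and 4.37 after APAP. Of 9 portal fibroblast and mesothelial markers, 1 was higher and 2 were lower, with means between 3.73 and 3.90 in vehicle and between 3.53 and 3.85 after APAP. Both counts lie near the 30.1% of all probe sets called at 1 day. The part of these cells in the changes of Acta2, Tagln and Pdgfrb was not tested. Of 7 hepatocyte markers, 0 were called at 1 day and 0 at 2 days.

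Some markers of 3 further cell types were called at 1 day, where 30.1% of all probe sets were called. The Kupffer cell and cholangiocyte counts did not exceed that share. The median change was -0.04 over the endothelial, -0.09 over the Kupffer cell and 0.05 over the cholangiocyte markers (log2). Of 9 endothelial markers 3 were higher and 2 lower, with means between 6.83 and 6.92 in vehicle and between 6.82 and 7.21 after APAP. The junction proteins Pecam1 and Cdh5 rose by 0.87 ± 0.22 and 0.51 ± 0.12 (log2, SE, adjusted p of 0.0029 and 0.0024 in limma). Of 8 Kupffer cell markers 1 was higher, the scavenger receptor Marco (2.63 ± 0.72, adjusted p = 0.0054 in limma), and 1 lower, the lectin Clec4f (-0.46 ± 0.18, adjusted p = 0.048), with means between 8.01 and 8.38 in vehicle and between 7.85 and 8.79 after APAP. The Clec4f call was lost in 8 of the 10 fits that leave out 1 array.

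Of 5 measured cholangiocyte markers 1 was higher, the transcription factor Sox9 (1.84 ± 0.37, log2, SE, adjusted p = 0.00078 in limma). Their mean lay between 3.48 and 3.76 in vehicle. It lay between 4.21 and 4.26 on replicates 2, 3 and 5 of high-dose APAP, the arrays with the highest Acta2 and Timp1, and at 3.52 and 3.56 on replicates 1 and 4. None of the markers of these 3 cell types was called at 2 days by limma. The part of these cells in the results was not tested. Fitted on the 2 groups alone, 0 genes of the marker lists were called at 1 day and 1, a macrophage marker, at 2 days.

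High-dose APAP at 2 days gave a smaller set. Of the 10 genes 2 rose, Acta2 and Lox, and 0 fell. In this comparison 4.48% of all probe sets were called, 2.85% higher and 1.63% lower. The median change of the 10 was 0.54 (log2), against -0.05 over all genes. In 3 of them, Timp1, Mmp12 and Mmp13, each treated array lay above each vehicle array, as did 1.85% of all probe sets. None of those 3 passed limma's test. Replicate 3 was the lowest treated array for all 10 genes and replicate 1 the highest for 8. The median signal of replicate 3 over all genes, 4.23, was also the lowest of the 69 arrays.

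Fitted on the arrays of the 2 groups alone, 0 of the 10 genes and 0.162% of all probe sets were called at 2 days, with an adjusted p of 0.12 for Acta2 and 0.18 for Lox in limma. Without treated replicate 1, Acta2 stood at 1.40 (adjusted p = 0.091 in limma), Lox at 0.36 (adjusted p = 0.065), and 0 of the 10 genes and 1.13% of all probe sets were called. Without treated replicate 3, Timp1 stood at 2.36 (adjusted p = 0.038 in limma) and Tagln at 1.57 (adjusted p = 0.027), and 4 of the 10 genes and 5.63% of all probe sets were called. Without the 3 arrays of 1 day that stand apart, whose spread enters the fit, 5 genes were called (Acta2, Timp1, Tagln, Mmp12 and Lox), and 7.46% of all probe sets. With the first array of high-dose APAP at 1 day put back, 4 genes (Acta2, Timp1, Tagln and Lox) and 6.16% were called. With the lowest treated array of 2 days left out besides the 3, 6 genes and 8.75% were called.

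Acta2 read 6.45, 6.37, 6.52, 6.34 and 6.22 in vehicle at 2 days and 10.23, 8.12, 6.37, 7.61 and 9.01 after APAP. All treated arrays but replicate 3 were above vehicle, and replicate 1 was the highest Acta2 value of all 69 arrays. It rose by 1.89 ± 0.44 (log2, SE) or 3.71-fold, with an adjusted p of 0.0055 in limma and an exact permutation p of 0.032.

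Lox read 3.24, 3.29, 3.09, 3.20 and 3.25 in vehicle and 4.30, 4.00, 3.08, 3.48 and 3.73 after APAP. Here too replicate 3 stayed low and the other 4 were above vehicle. Lox rose by 0.50 ± 0.11 (log2, SE) or 1.42-fold, with an adjusted p of 0.0028 in limma and an exact permutation p of 0.048. Its signal remained in the lowest part of the array's range.

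Timp1 read 3.55, 3.30, 3.60, 3.43 and 3.43 in vehicle and 7.47, 4.77, 3.82, 4.56 and 6.49 after APAP. The groups did not overlap, with replicates 1 and 5 far above the rest. Its change of 1.96 ± 0.69 (log2, SE) had an adjusted p of 0.092 in limma and an exact permutation p of 0.0079.

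Tagln read 6.18, 6.00, 6.01, 5.77 and 6.15 in vehicle and 8.73, 7.07, 6.01, 6.66 and 7.91 after APAP, with replicate 3 inside the vehicle range. Its change was 1.25 ± 0.44 (log2, SE, adjusted p = 0.094 in limma, exact permutation p = 0.032). The order of the treated arrays was that of Acta2.

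Mmp12 read 2.89, 2.77, 2.81, 2.94 and 2.81 in vehicle and 5.14, 4.47, 2.96, 3.23 and 5.24 after APAP. Its change was 1.36 ± 0.60 (log2, SE, adjusted p = 0.2 in limma, exact permutation p = 0.0079). Mmp13 read 2.67, 2.76, 2.62, 2.58 and 2.72 in vehicle and 3.40, 3.20, 2.77, 2.85 and 2.95 after APAP, so that the lowest treated array, at 2.77, was barely above the highest vehicle array, at 2.76. Its change was 0.36 ± 0.60 (log2, SE, adjusted p = 0.8 in limma).

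Pdgfrb read 5.23, 5.53, 5.45, 5.33 and 5.25 in vehicle and 6.80, 5.71, 5.25, 5.66 and 6.25 after APAP, a change of 0.57 ± 0.28 (log2, SE, adjusted p = 0.26 in limma). Lrat lay between 6.90 and 7.25 in vehicle and between 6.16 and 7.48 after APAP, and its change was 0.01 ± 0.24. With arrays centred on their medians that change was -0.03, the single sign that turned at 2 days. Reln lay between 9.07 and 9.27 in vehicle and between 8.79 and 9.37 after APAP, with a change of -0.04 ± 0.18. Des changed by 0.10 ± 0.11 (log2, SE). None of these 4 passed limma's test.

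**Figure D4:**
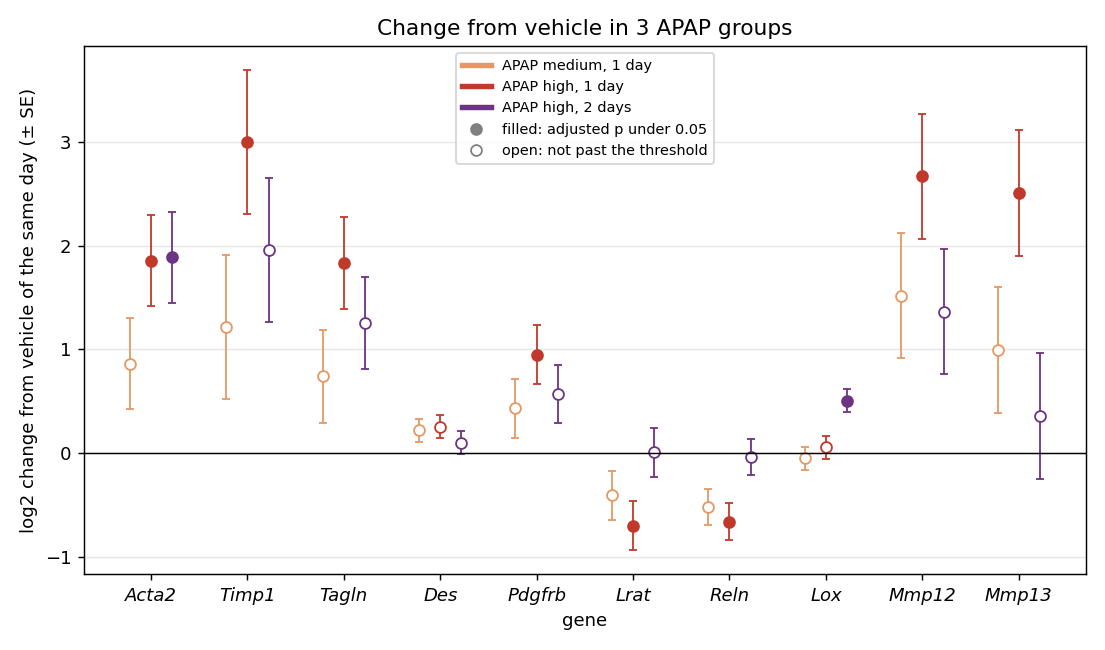
Log2 change from vehicle of the same day (vertical axis, with SE from limma over 69 arrays) for each gene in 3 APAP groups of 5 arrays. Filled circles passed an adjusted p of 0.05 and open circles did not. Acta2 is level at 1 and 2 days, Mmp13 is high at 1 day, and Lox passed the test at 2 days.

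Among the related lists at 2 days, 6 of 18 matrix glycoproteins and proteoglycans were higher and 0 lower, with a list median of 0.35. Postn, periostin of healing matrix, rose by 1.29 ± 0.20, Lum, the proteoglycan lumican, by 0.94 ± 0.17, and Bgn, biglycan, by 0.57 ± 0.10 (log2, SE, adjusted p from 3.8e-05 to 2e-04 in limma). Of 17 crosslinking and processing genes, 5 were higher and 0 lower, among them Pcolce, an enhancer of procollagen cleavage, by 0.84 ± 0.15 (adjusted p = 2e-04 in limma). Serpinh1, the collagen chaperone HSP47, rose by 1.63 ± 0.42 (adjusted p = 0.014 in limma), a call lost without treated replicate 1 (1.18, adjusted p = 0.15) or 5 (1.38, adjusted p = 0.08). Without either array 1 of the 17 genes was higher, and without vehicle replicate 1, 3, 4 or 5 the count was 2 or 3. The glycoprotein count was 3 without treated replicate 1 or 5 or vehicle replicate 2 or 5, and 10 without treated replicate 3.

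Of the contractile genes at 2 days, 2 of 17 were higher and 0 lower: Vim, the filament vimentin of mesenchymal cells and macrophages, by 1.85 ± 0.40, and Tpm2, a muscle tropomyosin, by 0.65 ± 0.13 (log2, SE, adjusted p of 0.0028 and 0.0016 in limma). Of the PDGF and TGF beta genes, 2 of 23 were higher, with Ltbp2, a protein of elastic microfibrils, at 0.91 ± 0.15 (adjusted p = 8.6e-05 in limma). This count was 1 in most fits that left out 1 array, and 4 without treated replicate 3. Of the proteases and inhibitors, 3 of 22 were higher and 0 lower. These were Timp2 at 0.43 ± 0.09 (adjusted p = 0.0027 in limma), Mmp23, a membrane-bound MMP, at 0.44 (adjusted p = 0.013), and Adam12, a disintegrin protease, at 0.65 (adjusted p = 0.037). All 3 calls were lost without treated replicate 1 (adjusted p of 0.062, 0.16 and 0.36 in limma), and without replicate 5 the count was 1. Of the stellate identity genes, 2 of 13 were higher and 1 lower. Dcn, decorin, rose by 0.36 ± 0.06, and Ecm1, extracellular matrix protein 1, fell by 0.45 ± 0.10 on the log2 scale (SE, adjusted p of 8.6e-05 and 0.0038 in limma).

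Macrophage markers stayed high at 2 days, with 7 of 10 called higher and means between 4.78 and 5.07 in vehicle and between 5.30 and 7.23 after APAP. The lowest of these treated arrays was replicate 3 and the highest replicate 1, as for Acta2 and Lox. Gpnmb, a glycoprotein of phagocytic macrophages, rose by 2.46 ± 0.41 (log2, SE, adjusted p = 5.8e-05 in limma). Of 8 neutrophil markers, 0 were called at 2 days, with means between 3.77 and 3.96 in vehicle and between 3.92 and 5.09 after APAP. The part of macrophages in these results was not tested.

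The change between days was tested as the effect of high-dose APAP at 2 days minus that at 1 day, each against its own vehicle. Of the 10 genes 0 were called by limma, 4 had an unadjusted p under 0.05, and 2.81% of all probe sets were called, 1.15% with a positive and 1.66% with a negative difference. The estimates ran from -2.15 ± 0.86 for Mmp13 and -1.30 ± 0.85 for Mmp12 to 0.62 ± 0.25 for Reln and 0.71 ± 0.33 for Lrat (log2, SE). Acta2 differed by 0.03 ± 0.62 and Lox by 0.45 ± 0.16. The lowest adjusted p was 0.085 in limma, for Lox. Thus a gene called at a single day is not shown to differ between the days.

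Single arrays moved these calls. Without replicate 1 of high-dose APAP at 1 day, 3 genes and 14.5% of all probe sets were called. The 3 were Mmp13 at -2.79, Reln at 0.82 and Lox at 0.47 (adjusted p of 0.017, 0.016 and 0.04 in limma). Without replicate 4 of that group Mmp13 was called (-2.55, adjusted p = 0.047 in limma), and without replicate 3 of high-dose APAP at 2 days Lox was called (0.61, adjusted p = 0.0052 in limma). The former fit called 1724 and the latter 562 of the 17306 probe sets, against 487 in the main fit. Other forms of this comparison called more. Set directly against each other, the 2 APAP groups differed in 4 of the 10 genes and in 18.9% of all probe sets. The level at 2 days minus that at 1 day was -2.18 for Mmp13 (log2, adjusted p = 0.009 in limma), and 0.70, 0.53 and 0.39 for Lrat, Reln and Lox (adjusted p of 0.03, 0.027 and 0.011). Vehicle of 2 days minus vehicle of 1 day ran from -0.17 for Tagln to 0.04 for Acta2, and no exact permutation p over the 10 genes was below 0.1. Without the 3 arrays that stand apart, the difference of effects was called for 6 of the 10 genes and 19.7% of all probe sets. The estimates were then -1.87, -2.01 and -2.79 for Timp1, Mmp12 and Mmp13, and 0.90, 0.82 and 0.47 for Lrat, Reln and Lox. That choice drops the array of high-dose APAP at 1 day nearest to vehicle and keeps its counterpart at 2 days, replicate 3. With that counterpart dropped too, 5 genes (Lrat, Reln, Lox, Mmp12 and Mmp13) and 18.5% of all probe sets were called. With both kept and only the first arrays of low-dose APAP and high-dose PQ dropped, 2 genes (Reln and Mmp13) and 8.86% were called.

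In the related lists the difference of effects was positive for Lum at 1.19 ± 0.24 (log2, SE, adjusted p = 0.0047 in limma). It was also positive for Pcolce, at 1.12 ± 0.21 (adjusted p = 0.0034), and for Lhx2, a transcription factor of resting stellate cells, at 1.18 ± 0.25 (adjusted p = 0.0081). These 3 calls held when each array was left out in turn. Over the 6 lists 9 genes were called with a positive and 2 with a negative difference.

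Medium-dose APAP at 1 day had 0 of the 10 genes called, and 0.243% of all probe sets. The 5 arrays spread widely. Replicate 4 had 7 genes above and 2 below every vehicle array, replicate 1 had 7 above and 1 below, and replicate 5 had 6 above and 1 below. Replicate 2 had 1 above and 1 below, and replicate 3 had 0 above and 5 below. Timp1, for example, read 5.50, 3.48, 3.36, 7.56 and 4.18, and Mmp12 read 5.44, 3.02, 2.59, 7.01 and 4.21. Mmp13 read 3.62, 2.68, 2.57, 6.69 and 2.91, so that its mean was set mostly by replicate 4.

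The changes at the medium dose were 1.52 ± 0.60 for Mmp12 (adjusted p = 0.2 in limma), 1.22 ± 0.69 for Timp1, 0.99 ± 0.60 for Mmp13 and 0.86 ± 0.44 for Acta2 (log2, SE). Tagln stood at 0.74 ± 0.44, Pdgfrb at 0.43 ± 0.28, Lrat at -0.40 ± 0.24 and Reln at -0.52 ± 0.18 (adjusted p = 0.15 in limma). The median of the 10 was 0.59. Without the 3 arrays that stand apart, none of which belongs to this group, Reln and Mmp12 were called at the medium dose (adjusted p of 0.0046 and 0.019 in limma), at the same estimates, with 5.82% of all probe sets. The smaller spread of that fit is set by the choice of the arrays.

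Low-dose APAP had 0 of the 10 called, with 0 probe sets called in all, and an adjusted p of 0.76 or above for each of the 10 in limma. Replicate 1 read 8.46 for Acta2, 7.77 for Timp1, 8.26 for Tagln, 7.28 for Pdgfrb, 6.40 for Mmp12 and 6.53 for Mmp13, values within or above the range of the high-dose arrays. The other 4 arrays read between 6.27 and 6.75 for Acta2, between 3.54 and 3.77 for Timp1 and between 2.53 and 2.71 for Mmp13. The highest change with all 5 arrays was 0.87 for Timp1. Without replicate 1 the changes of the 10 genes lay between -0.11 and 0.12 (log2).

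High-dose PQ at 1 day showed the same arrangement. Replicate 1 read 8.31 for Acta2, 7.54 for Timp1, 8.31 for Tagln, 6.80 for Pdgfrb, 6.50 for Mmp12 and 6.66 for Mmp13, and it was low for Reln at 7.96. The other 4 arrays read between 6.29 and 6.49 for Acta2, between 3.40 and 3.77 for Timp1 and between 9.13 and 9.35 for Reln. None of the 10 genes was called, and 0 probe sets were called in all (0 of the 10 also at an unadjusted p under 0.05). Timp1 had the highest change, 0.77 (log2). Without replicate 1 the 10 changes lay between -0.11 and 0.15. Macrophage markers had a mean of 6.48 on the highest array of that group and a group median of 5.12. What sets these arrays apart, a wrong label included, was not tested.

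No change of the 10 genes was called for INZ. Over its 4 comparisons, which make 40 values, changes ran from -0.19 for Mmp12 to 0.24 for Acta2 (log2), each with an adjusted p of 1 in limma and none with an unadjusted p under 0.05. At high-dose INZ at 1 day 0.0231% of all probe sets were called and in the other 3 INZ comparisons 0. In low- and medium-dose PQ at 1 day and high-dose PQ at 2 days, changes ran from -0.17 for Lrat to 0.15 for Reln, with 0 probe sets called in all and none of the 30 values at an unadjusted p under 0.05 in limma. The exact permutation p, unadjusted, was under 0.05 for 1 of the 30, Reln in high-dose PQ at 2 days (0.032).

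The order of the group means shows how far these levels separate. For Timp1 they were 6.60 ± 2.31 (SD, n = 5) in high-dose APAP at 1 day, 5.42 ± 1.51 at 2 days, 4.81 ± 1.76 at the medium dose, 4.47 ± 1.85 at the low dose and 4.36 ± 1.78 in high-dose PQ at 1 day. The 9 remaining groups lay between 3.43 and 3.78 with SDs of at most 0.31. For Acta2 the top was 8.27 ± 1.46 at 2 days and 8.20 ± 1.26 at 1 day after high-dose APAP, then 7.21 ± 1.20 at the medium dose, 6.86 ± 0.91 at the low dose and 6.79 ± 0.86 in high-dose PQ at 1 day. The other 9 lay between 6.34 and 6.58. In both genes neighbouring means among the top 5 groups lay closer than their SDs.

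For Mmp13, high-dose APAP at 2 days, at 3.03 ± 0.26 (SD, n = 5), stood below the medium dose at 3.69 ± 1.72 and the low dose at 3.42 ± 1.74. For Reln the lowest means were 8.58 ± 0.53 in high-dose APAP at 1 day and 8.72 ± 0.41 at the medium dose. High-dose APAP at 2 days lay at 9.11 ± 0.21, next to vehicle of 2 days at 9.15 ± 0.08. For Lrat the lowest was again high-dose APAP at 1 day, at 6.38 ± 0.51, and vehicle of 1 day itself spread by 0.46 around 7.08. For Lox high-dose APAP at 2 days, at 3.72 ± 0.47, came first and every other group mean lay between 3.21 and 3.45.

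Across the 69 arrays the signals of 6 genes moved in close step. Pearson's r was 0.97 between Timp1 and Tagln, Timp1 and Pdgfrb, and Timp1 and Mmp12, and 0.93 between Mmp12 and Mmp13. Acta2 and Mmp13 were less alike, at 0.78. Reln ran opposite to Mmp13 (-0.88) and Mmp12 (-0.84), and Lrat went with Reln (0.62). Lox stood apart, with 0.53 for Acta2 as its highest value among the 10. Within the 20 APAP arrays the values were similar for Timp1 with Tagln (0.98) and for Reln with Mmp13 (-0.87). The arrays fall into groups and share a few strongly shifted members, so these are descriptions without a test.

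Over all probe sets with a symbol, the genes most like each of the 10 were ranked by Pearson's r across the 69 arrays. Nearest to Timp1 were Anxa2, an annexin (0.986), and Tnc (0.978). Nearest to Mmp12 were Anxa2 (0.978) and Timp1 (0.970), and to Mmp13 Thbs1 (0.979) and Ch25h, cholesterol 25-hydroxylase (0.970). Acta2 lay nearest to S100a6, a calcium-binding protein (0.970), and Vim (0.967). Tagln lay nearest to Col4a1, a basement membrane collagen (0.970), and Anxa2 (0.970), and Pdgfrb to Col4a1 (0.968) and Timp1 (0.966).

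The genes that fell had other neighbours. Lrat was most like Rarb, a retinoic acid receptor (0.809), and Cyp26b1, which breaks down retinoic acid (0.714). Reln was most like Gpld1, a phospholipase secreted by hepatocytes (0.930), and Abcc6, a transporter of hepatocytes (0.921). Lox was most like Col6a3, a collagen VI chain (0.754), and Prc1, a protein of the dividing cell (0.743). Des had no close match, Niban2 (0.734) and Tmem43 (0.728) being nearest.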

How the data were processed

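Liver RNA of 69 mice was labelled with a 3′ IVT kit, per the labels' protocols, and read on arrays. The deposited values are log2 signals, from 1.87 to 14.34; RMA is the tool that the submitters' processing notes name, and its version is not given in the sources used here. No depth exists for arrays, and their number limits the precision. Probe sets were named from the platform annotation: 16464 of 17306 carry 1 symbol and 842 none. Groups came from the labelled treatment and time.

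A mean per group was fitted with limma 3.58.1 in R 4.3.3, two-sided, with 55 residual and 3.5 prior degrees of freedom. The fit uses 1 spread for every group, although arrays within the APAP groups varied more than others. SEs come from this fit and SDs from arrays. Exact permutation tests enumerate 252 splits. Python 3.11.15, numpy 2.4.6, pandas 2.3.3 and matplotlib 3.10.9 were used for the motif search, summaries and plots.

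The 10 genes and all lists were chosen with earlier results of these data known. Named genes are the members, from each list up to 3 called genes with the smallest adjusted p at each day and 2 in the time difference, up to 2 per marker list, and the 2 nearest genes by correlation. Hand2, Ngfr and Gfap were added to check the label. Alternatives varied the arrays in the fit, weights, normalization, a filter on dim genes, the prior, the controls, the numbers in array titles and single arrays. Fits without only 2 of the 3 arrays that stand apart, fits also without the lowest array of high-dose APAP at 2 days, and all alternatives for the lists were added after seeing the data. Where the symbol list holds an older name of a gene, the gene counts once among those measured.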

Additional observations from a re-analysis of the deposited data

Results flagged for a closer look

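In groups of 4 or 5 arrays, the highest or lowest array was marked where its gap to the next exceeded Dixon's 95% critical value. Of 140 gene and group pairs 24 were marked, where chance gives about 7. In low-dose APAP, replicate 1 was marked for 7 genes as the highest array (Acta2 8.46, Timp1 7.77, Tagln 8.26, Des 4.33, Pdgfrb 7.28, Mmp12 6.40 and Mmp13 6.53) and for Reln as the lowest (8.22). In high-dose PQ at 1 day, replicate 1 was marked for 6 genes as the highest (Acta2 8.31, Timp1 7.54, Tagln 8.31, Pdgfrb 6.80, Mmp12 6.50 and Mmp13 6.66) and for Reln as the lowest (7.96). In medium-dose APAP, replicate 4 was marked for Mmp13 (6.69). In high-dose APAP at 2 days, replicate 3 was marked for Lrat (6.16, lowest). No array of high-dose APAP at 1 day was marked, replicate 1 included.

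The other marked values are small shifts. In high-dose INZ at 1 day, replicate 3 was highest for Acta2 (7.001) and Mmp12 (3.53). Timp1 was highest on replicate 4 of medium-dose INZ (3.74) and on replicate 3 of medium-dose PQ (3.88). Tagln was lowest on replicate 2 of low-dose PQ (5.77), Lox on replicate 5 of high-dose PQ at 2 days (2.996), and Mmp13 on replicate 4 of low-dose INZ (2.47).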

How the results depend on the processing

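The main fit called 8, 2 and 0 of the 10 genes for high-dose APAP at 1 day, at 2 days and in the difference between days, and 0 in the other 10 comparisons together. No called change turned its sign under any alternative. Fitted on the compared arrays alone, 0 genes were called at either day. Array weights called 9, 6 and 8, and 1 in the other comparisons. Without the 3 arrays that stand apart the counts were 9, 5 and 6, and 2 elsewhere. Chosen after seeing the data, the fit without only the first arrays of low-dose APAP and high-dose PQ gave 9, 4 and 2, and 1 elsewhere, and the fit without the 3 arrays and the lowest array of high-dose APAP at 2 days gave 9, 6 and 5, and 2 elsewhere. Arrays with title numbers up to 190, a number of unstated meaning, gave 9, 0 and 4, and 2 elsewhere. Vehicles of both days gave 9 and 4. Without dim genes, which removes Lox and Des, 1 gene was called at 2 days. Centring called 1 gene, Lox, in the difference between days, and the direct comparison of the APAP groups called 4. Leaving out each array gave 6 to 9, 0 to 4 and 0 to 3, and 0 elsewhere. Quantile normalization, the trended prior and the title block gave 8, 2, 0 and 0. In most of these the cause was not tested.

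Over all genes, 5207, 776 and 487 probe sets were called in the 3 comparisons. The compared arrays alone called 18, 28 and 11, array weights 8809, 1584 and 5025, and the fit without the 3 arrays 7023, 1291 and 3414. Title numbers up to 190 gave 7156, 345 and 3400, vehicles of both days 6162 and 1402, and no dim genes 4342, 659 and 747. The direct comparison called 3268. Leaving out each array called 16.6% to 38.8%, 1.13% to 6.59% and 0.699% to 14.5% of probe sets. Centring moved the all-gene median to -0.14 at 1 day and called 6741, of which 1887 were higher, against 2559 of 5207.

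No paired analysis was possible because each array is a separate mouse and the replicate numbers only follow the order of the records. Signals near background limit Timp1, Des, Lox, Mmp12 and Mmp13 in vehicle.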
